A study of Mus musculus with 24 samples.

Results

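Potassium channel subunits were taken as the genes whose mouse symbol starts with Kcn followed by a letter and a number and whose counts, summed over the 24 libraries, reached 240. This gave 71 of the 22274 genes in the deposited table, all annotated as protein coding. They hold the pore-forming subunits of the voltage-gated (Kcna to Kcnd, Kcnh and Kcnq), inward rectifier (Kcnj), tandem-pore (Kcnk), calcium-activated (Kcnn) and sodium-activated (Kcnt) channels, the modulatory Kcnf, Kcng, Kcns and Kcnv subunits that form no channel alone, and the small Kcne subunits. Another 10 matching symbols fell short, the nearest being Kcnk7 with 86 counts, Kcnv2 with 79 and Kcne3 with 65, and Kcnj1 had 0. The members with the fewest counts were Kcnq1 with 288, Kcng3 with 334, Kcnn4 with 426 and Kcnj15 with 452. Outside the 12 libraries of lesioned hypothalamus Kcnj15 had 18 counts, Kcnn4 80, Kcnq1 89, Kcng3 225 and Kcnk5 235, so these 5 reached 240 only with those libraries. For description they were placed by general knowledge of mouse brain into 40 neuronal, 3 astrocytic, 5 microglial and macrophage, 3 choroid plexus and 3 vascular channels, and 17 were left unclassed.

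The open probability of potassium channels sets the resting potential of neurons, the shape of action potentials and the pattern of repetitive firing. Astrocytes use inward rectifiers to take up potassium that active neurons release, and microglia and macrophages carry a different set of channels that hold their membrane potential. The choroid plexus epithelium, which makes cerebrospinal fluid, moves potassium through its own inward rectifier and Kcne subunits.

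The series measured messenger RNA by sequencing in hypothalamus and hippocampus of male C57BL/6J mice. A pituitary stalk electrical lesion (PEL), which destroys the connection to the pituitary with electric current, was compared with Sham surgery, with or without growth hormone (GH). The 8 groups held 3 libraries each. The hypothalamic groups were SHAM (Sham, Day 0), SHAM-GH (Sham with GH, Day 0), PEL_3d and PEL_3d-GH (lesion without or with GH, Day 3), and PEL_10d and PEL_10d-GH (the same at Day 10). The hippocampal groups were HIP-SHAM (Sham, Day 0) and HIP-PEL_10d (lesion, Day 10). Since Sham is Day 0, lesion and time cannot be told apart where Sham is the control. The labels do not say whether the libraries of a group came from separate animals, so the p-values measure spread between samples.

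Total counts, in the order of replicates 1, 2 and 3, were 15313672, 15095267 and 15593644 in SHAM, 15649655, 17453164 and 16136690 in SHAM-GH, and 16317144, 15691068 and 16075413 in PEL_3d. They were 16116528, 15804115 and 17859115 in PEL_3d-GH, 15792361, 16668523 and 15395549 in PEL_10d, and 16966196, 15833661 and 17285291 in PEL_10d-GH. The hippocampal totals were 15194955, 15328587 and 16825998 in HIP-SHAM and 15933738, 17973494 and 15756054 in HIP-PEL_10d. The lowest total was that of SHAM-2 and the highest that of HIP-PEL_10d-2.

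Tissue markers set SHAM-1 and HIP-SHAM-1 apart from their labels. Summed over 14 hypothalamic marker genes, SHAM-1 had 13.2 FPKM (fragments scaled by gene length and library size), SHAM-2 and SHAM-3 had 1428 and 1379, and HIP-SHAM-1 had 1194 against 8.71 and 8.54 in HIP-SHAM-2 and HIP-SHAM-3. Summed over 14 hippocampal marker genes, SHAM-1 had 298 FPKM and HIP-SHAM-1 had 149, where the other hippocampal libraries ran from 352.75 to 421.24 and the other hypothalamic ones from 93.73 to 152.52. SHAM-1 also had 17751 FPKM over 10 choroid plexus marker genes, of which Ttr gave 14319.72, where the other hippocampal libraries had at most 6520.65. Its sums over 10 thalamic and 10 striatal marker genes, 142 and 179 FPKM, were also above those of the other hippocampal libraries (22.12 to 98 and 68.94 to 106.45). HIP-SHAM-1 thus had the markers of hypothalamus, while SHAM-1 lacked those of hypothalamus without matching the hippocampal libraries. Both libraries were treated as tissue-mislabelled and left out of the tests, which leaves SHAM and HIP-SHAM with 2 libraries each, and results that rest on either group are given with the library kept in as well. HIP-SHAM-3 is labelled Hypothalamus, but its title is hippocampal and its marker sums, 365 FPKM hippocampal and 8.54 hypothalamic, were those of the hippocampal libraries. PEL_10d-GH-3 had 5555 FPKM over 8 anterior pituitary marker genes, where no other library passed 114.68. Pomc, which is also among the hypothalamic markers, gave 5478.75 of it. The library was kept in.

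In Sham hypothalamus the most abundant member was Kcnj10, an inward rectifier of astrocytes, at 103 and 104 FPKM in SHAM-2 and SHAM-3. Kcnc1, a fast delayed rectifier, was at 33.5 and 35.8 FPKM, and Kcnk2, a mechanically gated background channel, at 31.4 and 27.3. In Sham hippocampus Kcnj3, a G protein-gated inward rectifier, was at 46.1 and 43.2 FPKM in HIP-SHAM-2 and HIP-SHAM-3, with Kcnj10 at 38.8 and 41.5 and Kcnj13, an inward rectifier of choroid plexus, at 34.3 and 42.3. Of the 71 members, 20 had a mean of at least 10 FPKM in SHAM, 36 lay between 1 and 10, and 15 were below 1. The corresponding numbers in HIP-SHAM were 25, 30 and 16.

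**Figure D1:**
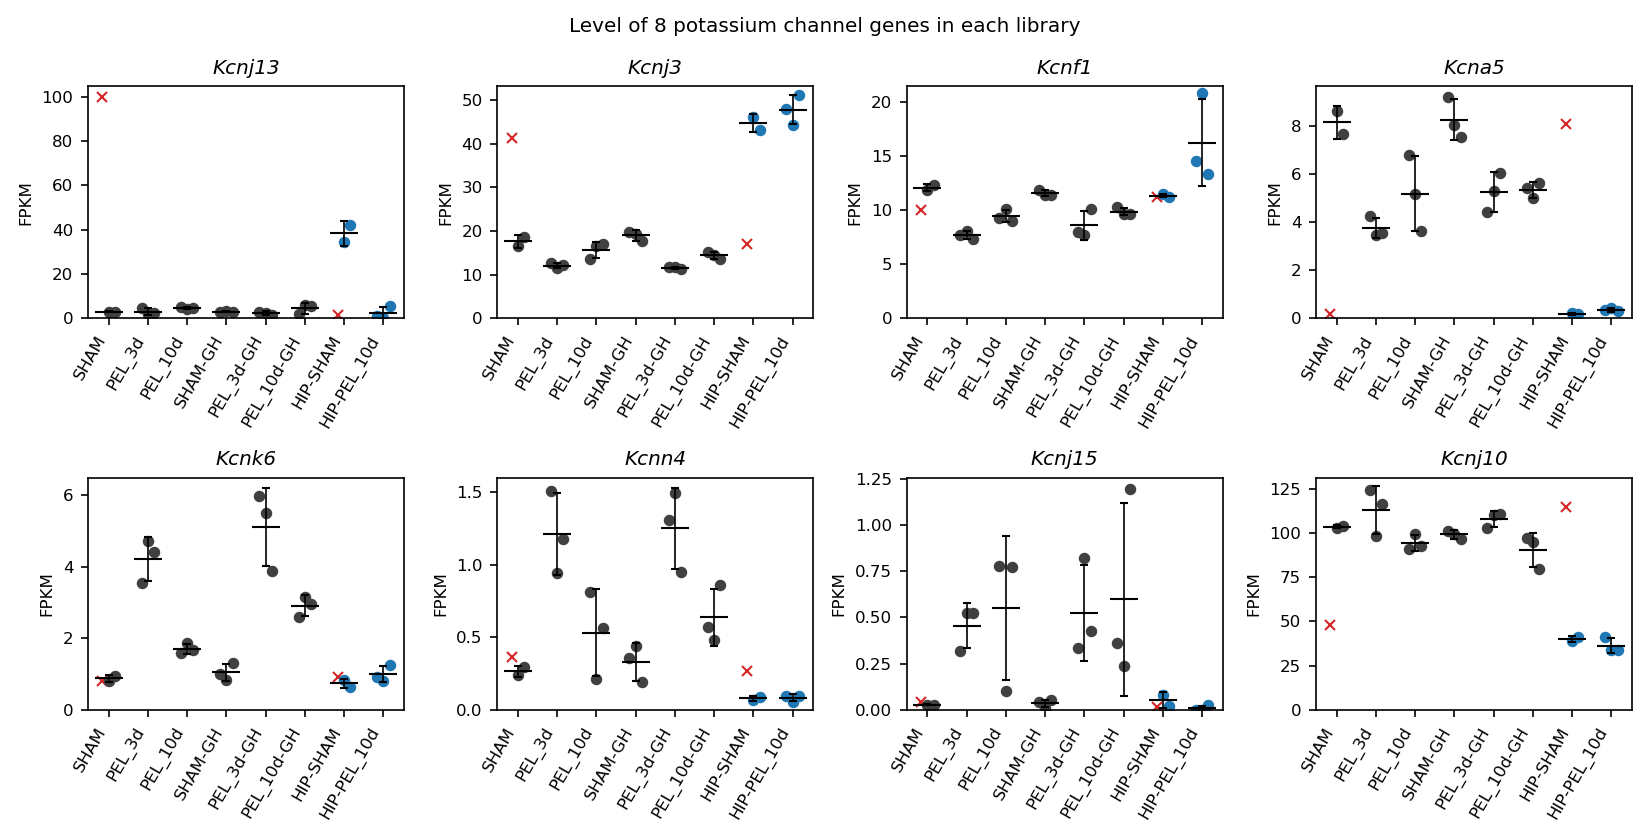
FPKM of 8 members in each library, with dots for libraries, red crosses for SHAM-1 and HIP-SHAM-1, blue for hippocampus, and bars for the mean ± SD without the crosses. In Kcna5 the crosses lie in the range of the other tissue, at 0.183 FPKM in SHAM-1 and 8.07 in HIP-SHAM-1, while in Kcnj13 SHAM-1, at 99.8, is above every other library.

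The comparison of PEL_3d with SHAM asks which channels differed in the hypothalamus 3 days after the lesion. It called 33 of 70 tested members at an adjusted p under 0.05 (edgeR), 5 higher and 28 lower, where 40.5% of all 14905 tested genes were called, 22.2% higher and 18.2% lower. Between PEL_3d and SHAM, the libraries did not overlap in 8 members that were higher and 43 that were lower in PEL_3d, where 62.8% of all genes did not overlap (31.4% higher, 31.4% lower). The share of members called lower was thus above that of all genes. Of the 5 higher members Kcnj15, Kcnn4 and Kcnq1 reached the count threshold only through lesioned hypothalamus, so the number called higher is no support, and no p is given for these 3. The median log2 fold change was -0.30 over the members and -0.011 over all genes. Of the 40 neuronal channels 23 were called lower and 0 higher, with 37 below 0 and a median of -0.36. At an unadjusted p under 0.05 the neuronal counts were 27 lower and 0 higher, and DESeq2 called 19 lower and 0 higher. Leaving out SHAM-2 gave 18 called members (3 higher, 15 lower) and leaving out SHAM-3 gave 19 (4 higher, 15 lower). With SHAM-1 kept in, 7 were called, 3 higher and 4 lower.

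Summed over the 40 neuronal channels, FPKM were 393 and 402 in SHAM-2 and SHAM-3 and 315, 322 and 303 in the PEL_3d libraries. Both SHAM sums were above every PEL_3d sum. The sum over 12 neuron marker genes, led by Snap25 and Syp, was 2419 and 2383 FPKM in SHAM and 1917, 2088 and 1824 in PEL_3d, also without overlap, and 10 of those 12 genes were called lower and 0 higher (median log2 fold change -0.32). Summed over 15 microglia and macrophage marker genes, FPKM were 251 and 256 in SHAM and 3137, 2585 and 4644 in PEL_3d, and all 15 were called higher. Fewer cells of a type and less RNA per cell cannot be told apart in these data, and the part that cell numbers had in any channel's change was not tested.

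**Figure D2:**
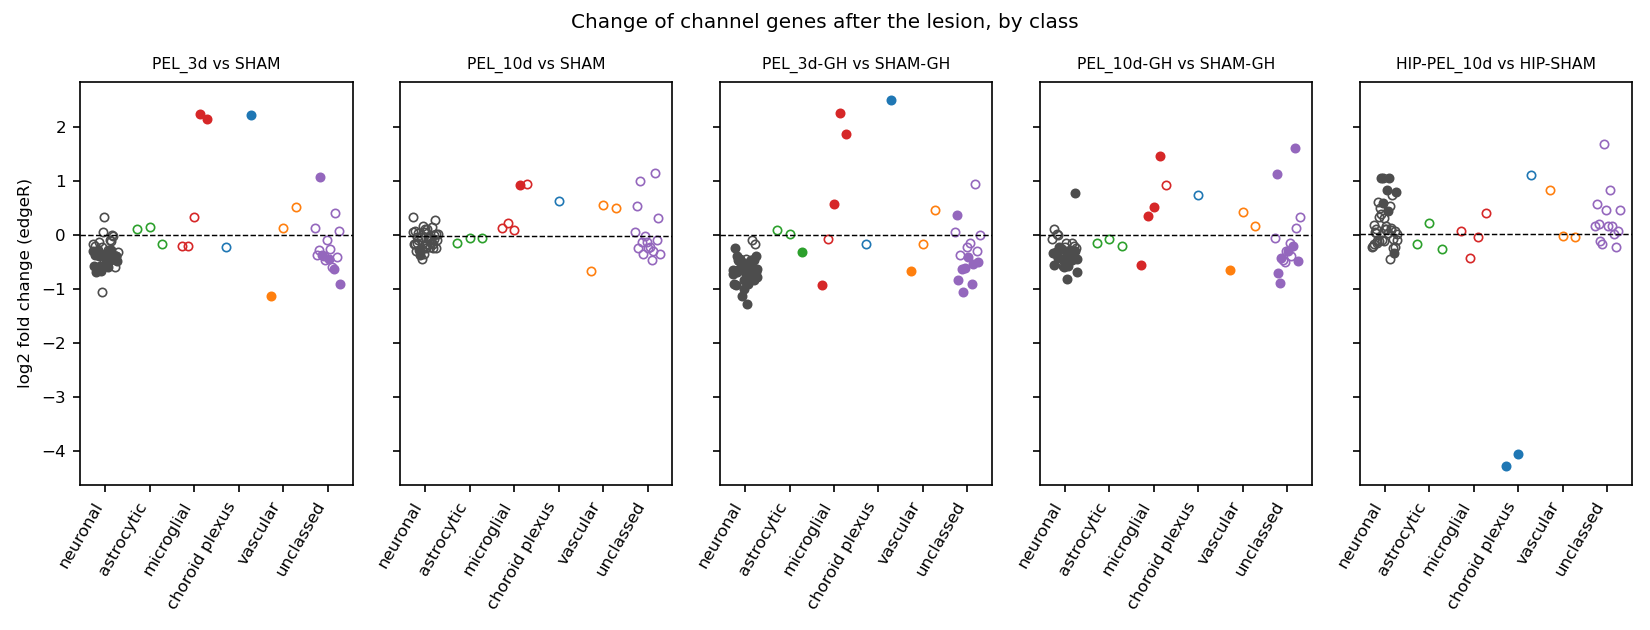
Log2 fold change of each tested member (y axis) by class (x axis) in 5 lesion comparisons, with filled points for members called at an adjusted p under 0.05 and a dashed line at the median of all genes; Kcnj15 is not drawn. Most neuronal channels lie below the line after 3 days, where the neuronal median was -0.36 without GH and -0.64 with GH.

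Among voltage-gated channels of the Kv1 to Kv4 families, 10 of 15 were called lower after 3 days, where 18.2% of all genes were, among them 3 of 6 Kv1 and 2 of 3 Kv4 members. Kcnd3, a subunit of the transient A-type current, had 21.6 and 20.6 FPKM in SHAM-2 and SHAM-3 and 15.2, 15.5 and 13.6 in PEL_3d. Every PEL_3d library was below both SHAM libraries, a log2 fold change of -0.58 ± 0.075 (SE; adjusted p = 0.000184, edgeR) with 2 against 3 libraries. Kcnd2, the other main A-type subunit, went from 23.4 and 23.3 to 19.5, 18.2 and 16.8 FPKM, again without overlap, and fell by 0.38 on the log2 scale (SE 0.075; adjusted p = 0.00245, edgeR). Kcnb2, a somatic delayed rectifier of the Kv2 family, had 3.88 and 3.02 FPKM in SHAM and 2.39, 2.03 and 2.33 in PEL_3d. The groups did not overlap, and the log2 fold change was -0.68 ± 0.11 (SE; adjusted p = 0.001, edgeR). Kcnf1, a silent subunit that joins Kv2 channels, fell from 11.9 and 12.3 to 7.69, 8.13 and 7.39 FPKM, with no PEL_3d library near a SHAM library and a log2 fold change of -0.66 ± 0.081 (SE; adjusted p = 0.000119, edgeR). When SHAM-1 was kept in, Kcnd2 (-0.41) and Kcnf1 (-0.59) were still called and Kcnb2 (-0.53) and Kcnd3 (-0.43) were not.

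Kcnc1 had 33.5 and 35.8 FPKM in SHAM-2 and SHAM-3 and 27.7, 28.8 and 25.97 in PEL_3d, all lower, with a log2 fold change of -0.34 ± 0.066 (SE; adjusted p = 0.00239, edgeR). Kcna2, an axonal Kv1 subunit, had 20.7 and 18.3 against 16.7, 15.7 and 15.7 FPKM in the same groups, without overlap, a change of -0.30 ± 0.074 (SE; adjusted p = 0.00879, edgeR). That call was lost without SHAM-2, where the log2 fold change was -0.20. Kcna1, its partner in many axons, was not called, at 3.99 and 4.74 FPKM in SHAM and 3.69, 4.06 and 4.12 in PEL_3d, where the groups overlapped. In a fit that kept SHAM-1, the log2 fold changes were -0.22 for Kcnc1 and -0.22 for Kcna2, and neither was called.

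Kcnq3, a subunit of the M-current channel that limits repetitive firing, had 11.1 and 10.1 FPKM in SHAM-2 and SHAM-3 and 8.37, 7.45 and 8.13 in PEL_3d. Every PEL_3d library was below every SHAM library, with a log2 fold change of -0.43 ± 0.077 (SE; adjusted p = 0.0015, edgeR). Kcnq5, a further subunit of this current, had 4.71 and 4.48 against 3.46, 4.21 and 3.18 FPKM, all lower in PEL_3d, and was called at -0.39 ± 0.12 (SE; adjusted p = 0.0262, edgeR), but lost the call without PEL_3d-1 (-0.35), PEL_3d-3 (-0.32), SHAM-2 (-0.35) or SHAM-3 (-0.44). Kcnt1, the sodium-activated Slack channel, had 10.05 and 11.5 FPKM in SHAM and 8.56, 7.51 and 8.896 in PEL_3d, without overlap. Its log2 fold change of -0.38 ± 0.086 (SE; adjusted p = 0.00535, edgeR) became -0.31 without SHAM-3 and was then not called. The low-expressed Kv12 member Kcnh3 was not called, with 0.555 and 0.451 FPKM in SHAM and 0.481, 0.62 and 0.488 in PEL_3d, which overlapped. With SHAM-1 added back, Kcnq3 (-0.82), Kcnq5 (-0.89) and Kcnt1 (-0.09) were not called.

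Of the inward rectifiers 6 of 14 were called lower after 3 days and 1 higher, against 18.2% and 22.2% of all genes. Kcnj3, Kcnj6 and Kcnj9 form the G protein-gated channels through which many transmitters inhibit neurons. Kcnj3 had 16.6 and 18.7 FPKM in SHAM-2 and SHAM-3 and 12.6, 11.4 and 12.3 in PEL_3d, all PEL_3d libraries being lower, a log2 fold change of -0.51 ± 0.077 (SE; adjusted p = 0.000458, edgeR). Kcnj6 had 5.56 and 6.29 against 4.59, 4.104 and 3.698 FPKM, also without overlap, a change of -0.59 ± 0.13 (SE; adjusted p = 0.00568, edgeR) that was -0.53 and not called without SHAM-3. Kcnj9 was called at -0.35 ± 0.11 (SE; adjusted p = 0.0343, edgeR) from 15.1 and 17.5 to 11.9, 15.02 and 11.9 FPKM, where PEL_3d-2 lay just under SHAM-2. That call was lost without PEL_3d-1 (-0.28), PEL_3d-3 (-0.29), SHAM-2 (-0.43) or SHAM-3 (-0.26). Among the tandem-pore background channels, Kcnk2 fell from 31.4 and 27.3 FPKM in SHAM to 21.4, 17.7 and 17.3 in PEL_3d, without overlap, by a log2 fold change of -0.63 ± 0.091 (SE; adjusted p = 0.000385, edgeR). If SHAM-1 was kept in, none of these 4 was called, at -1.11 for Kcnj3, -1.32 for Kcnj6, -0.14 for Kcnj9 and -0.42 for Kcnk2.

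The calcium-activated Kcnn2, which underlies part of the afterhyperpolarisation, was not called, at 7.23 and 7.31 FPKM in SHAM and 7.77, 6.67 and 8.49 in PEL_3d. Kcnv1, a silent subunit, was not called either, at 1.48 and 1.403 against 1.23, 1.09 and 1.22 FPKM. The groups overlapped in Kcnn2, and every PEL_3d value of Kcnv1 was below both SHAM values. Among the 17 unclassed members 2 were called higher and 4 lower, against 22.2% and 18.2% of all genes. Of the former, 1 was the silent subunit Kcng4, with 0.505 and 0.303 FPKM in SHAM and 0.741, 0.636 and 1.19 in PEL_3d, all higher, a log2 fold change of 1.06 ± 0.38 (SE; adjusted p = 0.0438, edgeR). It was not called without PEL_3d-1 (1.17), PEL_3d-3 (0.75), SHAM-2 (1.48) or SHAM-3 (0.73), and with SHAM-1 kept in it was -0.44. The other was Kcnj15.

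Of the channels listed for microglia and macrophages, Kcnk6 rose after 3 days, and Kcnn4, a member only through the lesion libraries, was higher. Kcnk6, a tandem-pore channel also found in macrophages, had 0.811 and 0.958 FPKM in SHAM-2 and SHAM-3 and 3.54, 4.71 and 4.42 in PEL_3d. Every PEL_3d library was above both SHAM libraries, and the log2 fold change was 2.23 ± 0.19 (SE; adjusted p = 8.19e-06, edgeR), 2 against 3 libraries. Kcnn4, the intermediate-conductance calcium-activated channel of activated microglia, had 0.238 and 0.294 FPKM in SHAM and 1.51, 0.946 and 1.18 in PEL_3d, again without overlap, a change of 2.15 ± 0.41. With SHAM-1 kept in these were 2.27 for Kcnk6, still called, and 1.96 for Kcnn4, for which no call is given as support. Kcnk13, a background channel of resting microglia, was not called, at 3.803 and 4.196 FPKM in SHAM and 4.94, 4.34 and 6.01 in PEL_3d. Nor were Kcna3, at 5.57 and 5.39 against 4.83, 4.49 and 5.102 FPKM, and Kcnj2, at 3.02 and 3.53 against 2.38, 3.17 and 3.06 FPKM, both of which neurons express as well. The PEL_3d values were all above SHAM in Kcnk13, all below in Kcna3, and overlapped in Kcnj2.

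Kcnj15, an unclassed inward rectifier, was nearly silent in Sham hypothalamus. Of its 452 counts 18 lay outside lesioned hypothalamus, so its place among the members rests on the lesion libraries and no test is given as support. It had 1 and 2 counts in SHAM-2 and SHAM-3, 26, 21 and 30 in PEL_3d, and 55, 8 and 41 in PEL_10d. All lesion libraries were above both SHAM libraries. The ratio of pooled counts, scaled to the library totals, was 16.4 for PEL_3d over SHAM (95% counting interval 5.40 to 81.2) and 22.2 for PEL_10d over SHAM (7.40 to 109.5). With GH the counts were 3, 1 and 4 in SHAM-GH, 27, 44 and 26 in PEL_3d-GH and 31, 19 and 106 in PEL_10d-GH. Again every lesion library was above every SHAM-GH library, with ratios of 11.99 at Day 3 (5.85 to 28.6) and 19.2 at Day 10 (9.49 to 45.2). PEL_10d-GH-3 held 106 of the 156 counts at Day 10, and without it the ratio was 9.38 (4.41 to 22.9). The intervals cover counting error only. The call at Day 10 without GH was lost when SHAM-2 or SHAM-3 was left out, which leaves a control of 2 or 1 counts. When SHAM-1 was kept in, Kcnj15 was called at Day 3, while at Day 10 it did not pass the low-count filter, nor did it without PEL_10d-1 or PEL_10d-3. The 5 hippocampal libraries tested had 0 or 1 count each.

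Kcnj15 lies beside Kcnj6 on chromosome 16, and the genes are 259.9 kb apart and on opposite strands. After 3 days Kcnj6 was called lower, while every PEL_3d library was above both SHAM libraries in Kcnj15, whose test is not given as support. The pair was singled out after these values were seen. In the 250 bases before the start of a RefSeq transcript (GRCm38.p6), the Kcnj15 window chr16:95257308-95257557 on the + strand holds 1 CG dinucleotide, and 18.8% of 32851 such windows of all genes hold as many or fewer. Kcnj6 has 2 windows on the - strand. That at chr16:94997697-94997946 holds 26, and 9.6% hold as many or more, while that at chr16:94856691-94856940 holds 7, and 46.3% hold as many or more. The median over all windows was 6, so only the former stands far above it.
Kcnj15: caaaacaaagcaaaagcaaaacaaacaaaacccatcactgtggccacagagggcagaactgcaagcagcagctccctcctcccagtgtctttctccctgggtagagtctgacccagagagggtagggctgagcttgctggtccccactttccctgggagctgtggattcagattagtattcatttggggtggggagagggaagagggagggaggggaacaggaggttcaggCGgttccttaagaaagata
Kcnj6, chr16:94997697-94997946: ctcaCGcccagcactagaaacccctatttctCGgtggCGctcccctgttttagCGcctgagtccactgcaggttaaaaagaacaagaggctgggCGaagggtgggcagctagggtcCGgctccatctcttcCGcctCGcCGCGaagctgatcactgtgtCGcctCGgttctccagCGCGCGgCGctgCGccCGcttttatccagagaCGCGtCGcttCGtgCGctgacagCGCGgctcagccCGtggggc
Kcnj6, chr16:94856691-94856940: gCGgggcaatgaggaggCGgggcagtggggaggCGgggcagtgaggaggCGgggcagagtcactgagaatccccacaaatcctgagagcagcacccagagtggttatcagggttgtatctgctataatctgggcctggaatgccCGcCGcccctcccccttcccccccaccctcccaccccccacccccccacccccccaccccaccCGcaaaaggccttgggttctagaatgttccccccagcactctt

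The choroid plexus channels were low in hypothalamus. Kcnj13 had 3.08 and 2.83 FPKM in SHAM-2 and SHAM-3 and 4.74, 1.81 and 2.498 in PEL_3d, where the groups overlapped and the gene was not called. Kcne2, an accessory subunit of choroid epithelium, had 0.081 and 0.118 FPKM in SHAM and 0.038, 0.039 and 0.114 in PEL_3d, at most 3 counts per library. Kcnq1, which pairs with Kcne subunits in epithelia, had 2 and 8 counts in SHAM and 29, 18 and 28 in PEL_3d, all PEL_3d libraries being above both SHAM libraries. It too reached 240 counts only through the lesion libraries. Its log2 fold change was 2.21 ± 0.55, which became 1.58 and not called without SHAM-2 and 3.45 without SHAM-3. No call of Kcnq1 is given as support. In a fit that kept SHAM-1 it was 1.41 and not called. In the libraries with the highest choroid plexus sums Kcnq1 had 16 counts (SHAM-1) and 3 and 6 (HIP-SHAM-2 and HIP-SHAM-3), and the part of choroid plexus in its values was not tested. The sum over the 10 choroid plexus marker genes in the 17 other hypothalamic libraries lay between 83.12 and 138.96 FPKM.

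Kcna5, a Kv1 channel placed with the vascular channels, fell. It had 8.61 and 7.66 FPKM in SHAM-2 and SHAM-3 and 4.24, 3.47 and 3.54 in PEL_3d, where every PEL_3d library was lower, a log2 fold change of -1.14 ± 0.13 (SE; adjusted p = 7.69e-05, edgeR). With SHAM-1 added back, it was -0.55 and not called. The pericyte channel Kcnj8, at 1.56 and 1.06 FPKM in SHAM and 2.07, 1.501 and 2.12 in PEL_3d, and the accessory subunit Kcne4, at 0.848 and 1.11 against 1.62, 0.813 and 0.936, were not called. Over 10 endothelial and mural marker genes the sums were 208 and 209.9 FPKM in SHAM and 298, 267 and 309.6 in PEL_3d, with 7 genes called higher. The 3 astrocytic channels were not called. Kcnj10 had 103 and 104 FPKM in SHAM and 125, 98.03 and 116 in PEL_3d, Kcnj16, which assembles with it, had 20.1 and 17.99 against 22.3, 20.5 and 20.9, and Kcnk1 had 16.9 and 19.4 against 15.6, 16.9 and 17.2. All PEL_3d values of Kcnj16 were above SHAM, and the other 2 genes overlapped. The sum over 10 astrocyte marker genes, 1138 and 1183 FPKM in SHAM and 2026, 1819 and 1907 in PEL_3d, did not overlap, with 6 genes called higher and 3 lower.

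At Day 10 fewer channels were called than at Day 3. The share of all genes called fell as well, from 40.5% to 9.40%, so the fall is not particular to the members. The comparison of PEL_10d with SHAM called 5 of 69 tested members, 2 higher and 3 lower, against 9.40% of all 14801 tested genes (7.97% higher, 1.43% lower). Between PEL_10d and SHAM, the libraries did not overlap in 10 members that were higher and 16 that were lower in PEL_10d, where 44.1% of all genes did not overlap (22.7% higher, 21.4% lower). Median log2 fold changes were -0.082 over the members, -0.089 over the neuronal channels and -0.012 over all genes. Kcnk6 had 0.811 and 0.958 FPKM in SHAM-2 and SHAM-3 and 1.58, 1.87 and 1.69 in PEL_10d, all higher, a log2 fold change of 0.93 ± 0.20 (SE; adjusted p = 0.0205, edgeR). Kcnj15, given above and a member only through the lesion libraries, was the other member called higher. Kcnf1 was called lower at -0.37 ± 0.082 (SE; adjusted p = 0.0245, edgeR), with 9.29, 10.1 and 9.01 FPKM in PEL_10d against 11.9 and 12.3 in SHAM, and Kcnd2 at -0.28 ± 0.063 (SE; adjusted p = 0.0261, edgeR), with 19.1, 19.7 and 19.7 against 23.4 and 23.3. Kcnd3 was called at -0.28 ± 0.073 (SE; adjusted p = 0.0492, edgeR), with 18.1, 19.03 and 16.9 FPKM against 21.6 and 20.6. In these 3 genes no PEL_10d library reached a SHAM library. All 5 calls were lost when SHAM-2 or SHAM-3 was left out, with log2 fold changes of 0.82 and 1.05 for Kcnk6, -0.39 and -0.36 for Kcnf1, -0.27 and -0.29 for Kcnd2, and -0.23 and -0.33 for Kcnd3. Kcnd2 was also lost without PEL_10d-2 (-0.28) and Kcnd3 without PEL_10d-1 (-0.28), PEL_10d-2 (-0.30) or PEL_10d-3 (-0.23). Leaving out SHAM-2 or SHAM-3, or keeping SHAM-1 in, gave 0 called members (edgeR).

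None of the other glial, choroid or vascular channels was called at Day 10. Kcnk13 had 4.51, 4.42 and 4.13 FPKM in PEL_10d, Kcnn4 0.814, 0.216 and 0.563, Kcna3 5.13, 6.09 and 7.04 and Kcnj2 3.08, 4.11 and 4.44. Kcnj10 had 91.04, 99.2 and 92.6, Kcnj16 17.3, 19.99 and 18.6 and Kcnk1 16.3, 19.6 and 17.6 FPKM. The remaining ones were Kcnj13 at 5.18, 4.06 and 4.603, Kcnq1 at 0.221, 0.211 and 0.15, Kcna5 at 6.77, 5.16 and 3.63, Kcnj8 at 1.79, 1.58 and 2.35 and Kcne4 at 1.73, 1.05 and 1.52 FPKM. Of these, every PEL_10d value of Kcnj13 and Kcnj8 was above both SHAM values, every value of Kcna5 and Kcnj10 was below them, and the other 8 genes overlapped. The neuron marker sum was 2007, 2238 and 2167 FPKM in PEL_10d (2 of 12 genes called lower), the microglia and macrophage sum 1226, 755 and 1132 (13 of 15 called higher) and the oligodendrocyte sum, led by Mbp, 3712, 3533 and 3706 against 2196 and 3028 in SHAM (4 of 10 called higher). The astrocyte sum was 1599.9, 1530.5 and 1612 FPKM in PEL_10d against 1138 and 1183 in SHAM (3 of 10 called higher), and the endothelial and mural sum 329, 243 and 291 against 208 and 209.9 (4 of 10 called higher), both without overlap. Their part in the channel values was not tested.

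Between Day 3 and Day 10, a comparison that uses no Sham library, 21 of 69 members were called, 19 higher and 2 lower at Day 10, against 18.5% of all genes (6.33% higher, 12.2% lower). Kcnk5, among the higher ones, and Kcnq1, among the lower ones, passed the count threshold only through lesioned hypothalamus. Neither call is given as support. Between PEL_10d and PEL_3d, the libraries did not overlap in 27 members that were higher and 4 that were lower in PEL_10d, where 37.4% of all genes did not overlap (16.8% higher, 20.6% lower). The members' median log2 fold change was 0.26, the neuronal median 0.30 and that of all genes 0.013. Of 39 neuronal channels 15 were called higher and 0 lower, also 0 lower at an unadjusted p under 0.05 (23 higher) and 0 lower by DESeq2 (15 higher). The last 2 criteria come without the share of all genes and are no result about the channels. Of the marker genes, 3 of 12 neuronal ones were called higher and 1 lower at Day 10, 12 of 15 microglial ones lower and 9 of 10 oligodendrocyte ones higher, and their part in the channel values was not tested. The number called was 8 without PEL_3d-1, 6 without PEL_3d-3, 4 without PEL_10d-2 and 13 without PEL_10d-3. Kcnt1 had 8.56, 7.51 and 8.896 FPKM in PEL_3d and 12.2, 11.03 and 10.02 in PEL_10d, all higher, a log2 fold change of 0.41 ± 0.083 (SE; adjusted p = 0.00922, edgeR). Kcnq3 had 8.37, 7.45 and 8.13 against 10.7, 10.5 and 9.27 FPKM, without overlap, a change of 0.35 ± 0.074 (SE; adjusted p = 0.0107, edgeR). Kcne1l, an accessory subunit also named Kcne5, rose by 0.93 ± 0.19 (SE; adjusted p = 0.0096, edgeR) from 6.51, 5.33 and 4.92 to 12.9, 11.003 and 7.79 FPKM. These 3 calls and that of Kcnk6 held when any library was left out. Kcnk6 was lower at Day 10, with 3.54, 4.71 and 4.42 FPKM in PEL_3d and 1.58, 1.87 and 1.69 in PEL_10d and no overlap, and fell by 1.30 on the log2 scale (SE 0.15; adjusted p = 0.000397, edgeR).

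Among the other neuronal channels that were higher at Day 10 than at Day 3, Kcna1 had 3.69, 4.06 and 4.12 FPKM in PEL_3d and 5.06, 5.88 and 5.804 in PEL_10d, and Kcnj3 had 12.6, 11.4 and 12.3 against 13.6, 16.5 and 17.02, neither with overlap. The log2 fold changes were 0.50 ± 0.11 (SE; adjusted p = 0.0134, edgeR) and 0.35 ± 0.077 (SE; adjusted p = 0.0137, edgeR). Both calls were lost without PEL_3d-1, at 0.44 for Kcna1 and 0.34 for Kcnj3, or without PEL_10d-2, at 0.45 and 0.30. Kcnc1 was called at 0.31 ± 0.069 (SE; adjusted p = 0.014, edgeR) and Kcnd3 at 0.31 ± 0.07 (SE; adjusted p = 0.0162, edgeR). They lost the call without PEL_3d-3, at 0.28 for Kcnc1 and 0.26 for Kcnd3, or without PEL_10d-2, at 0.26 and 0.27. Kcnj6 rose by 0.54 ± 0.13 (SE; adjusted p = 0.0181, edgeR) and lost the call without PEL_3d-3 (0.48), PEL_10d-2 (0.50) or PEL_10d-3 (0.49). The choroid plexus channel Kcnj13 was called higher at Day 10, at 0.86 ± 0.24 (SE; adjusted p = 0.034, edgeR), from 4.74, 1.81 and 2.498 FPKM in PEL_3d and 5.18, 4.06 and 4.603 in PEL_10d, where the groups overlapped. It lost the call without PEL_3d-2 (0.67), PEL_3d-3 (0.85), PEL_10d-1 (0.78), PEL_10d-2 (0.94) or PEL_10d-3 (0.85). Kcnq1, which passed the count threshold only through lesion libraries, was lower, at -1.61 ± 0.35 from 29, 18 and 28 counts to 9, 8 and 7, and lost the call without PEL_3d-1 (-1.51), PEL_3d-3 (-1.52) or PEL_10d-2 (-1.59).

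The lesion was compared with Sham among GH-treated mice as well, and these comparisons share no library with the ones without GH. After 3 days PEL_3d-GH differed from SHAM-GH in 50 of 69 members, 6 higher and 44 lower, against 52.1% of all 14743 genes (26.9% higher, 25.2% lower). The higher members include Kcnj15, Kcnn4 and Kcnq1, which reached the count threshold only through lesioned hypothalamus, so the number called higher is no support. Between PEL_3d-GH and SHAM-GH, the libraries did not overlap in 7 members that were higher and 46 that were lower in PEL_3d-GH, where 61.0% of all genes did not overlap (31.3% higher, 29.7% lower). On the log2 scale the median change was -0.48 over the members, -0.64 over the neuronal channels and -0.002 over all genes. Of 39 neuronal channels 33 were called lower and 0 higher, with 0 above 0, and both the unadjusted p under 0.05 (34 lower) and DESeq2 (33 lower) also gave 0 higher. The last 2 criteria come without the share of all genes and are no result about the channels. Lower both without and with GH were 26 members, 92.9% of the 28 without GH and 59.1% of the 44 with it, where over all genes the shares were 82.3% and 60.4%. Leaving out any library gave 43 to 51 called members. The neuronal channel sum was 429.8, 429.7 and 407 FPKM in SHAM-GH and 269, 272 and 314 in PEL_3d-GH. The neuron marker sum was 2532, 2406 and 2550.4 against 1648, 1649 and 1964 FPKM, with 11 of 12 genes called lower and 0 higher, and neither sum overlapped between groups. Over the microglia and macrophage markers, led by Spp1 in PEL_3d-GH, the sums were 209, 244 and 203 against 7194, 6908 and 4045 FPKM, without overlap, and all 15 genes were called higher. The astrocyte sum was 1238, 1202 and 1237 against 2132, 2065 and 1835 (6 of 10 genes called higher, 2 lower) and the endothelial and mural sum 209, 200.02 and 174 against 298, 341 and 243 (7 of 10 higher, 1 lower), both without overlap. The part of these markers in the channel values was not tested.

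Kcnh7, a Kv11 channel, had 3.32, 3.701 and 3.11 FPKM in SHAM-GH and 1.75, 1.68 and 1.72 in PEL_3d-GH, all lower, a log2 fold change of -1.003 ± 0.093 (SE; adjusted p = 1.7e-05, edgeR). Kcna2 had 23.5, 22.9 and 22.1 against 13.01, 15.2 and 13.6 FPKM, without overlap, a change of -0.72 ± 0.07 (SE; adjusted p = 2.4e-05, edgeR). The largest falls among the 13 neuronal channels named by choice were those of Kcnh3, at -1.13 ± 0.28 (SE; adjusted p = 0.00626, edgeR) from 0.795, 0.806 and 0.721 to 0.252, 0.462 and 0.363 FPKM, and Kcnj9, at -0.90 ± 0.11 (SE; adjusted p = 0.000103, edgeR) from 22.2, 17.9 and 18.9 to 9.89, 9.76 and 12.3, neither with overlap. Kcnj3 changed by -0.73 ± 0.072, Kcnj6 by -0.86 ± 0.15, Kcnq3 by -0.47 ± 0.074, Kcnq5 by -0.83 ± 0.10 and Kcnt1 by -0.68 ± 0.10. Kcna1 changed by -0.66 ± 0.094, Kcnc1 by -0.69 ± 0.078, Kcnd2 by -0.47 ± 0.064 and Kcnv1 by -0.78 ± 0.16. Each of the 13 except Kcnn2 was called, with adjusted p from 2.4e-05 for Kcna2 to 0.00626 for Kcnh3 (edgeR). Kcnn2 had 10.7, 9.35 and 10.4 FPKM in SHAM-GH and 9.46, 10.6 and 10.3 in PEL_3d-GH and was not called, with overlap. Further calls were Kcnb2 at -0.92 ± 0.11 (SE; adjusted p = 6.85e-05, edgeR) and Kcna4, an A-type Kv1 subunit, at -0.91 ± 0.11 (SE; adjusted p = 0.000114, edgeR). None of the calls named here was lost when a library was left out.

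Among the glial, choroid plexus and vascular channels under GH, Kcnk6 had 1.001, 0.842 and 1.305 FPKM in SHAM-GH and 5.97, 5.52 and 3.89 in PEL_3d-GH, all higher, a log2 fold change of 2.26 ± 0.21 (SE; adjusted p = 1.65e-05, edgeR). Kcnn4 had 0.358, 0.442 and 0.191 against 1.31, 1.496 and 0.95 FPKM, and Kcnk13 had 3.35, 3.15 and 3.32 against 4.77, 5.07 and 5.04. Neither overlapped, and the changes were 1.87 ± 0.36 and 0.58 ± 0.11 (SE; adjusted p = 0.00155, edgeR). Kcna3 was called lower, at -0.94 ± 0.18 (SE; adjusted p = 0.00181, edgeR), from 7.76, 9.13 and 5.702 to 4.34, 3.36 and 4.298 FPKM, and Kcna5 lower at -0.67 ± 0.13 (SE; adjusted p = 0.00182, edgeR), from 9.199, 8.03 and 7.54 to 4.401, 5.31 and 6.04. Kcnq1 had 2, 8 and 1 counts in SHAM-GH and 17, 29 and 19 in PEL_3d-GH, without overlap, a log2 fold change of 2.50 ± 0.57 that was 3.67 without SHAM-GH-2. Kcnn4 and Kcnq1 are members only through lesioned hypothalamus, so neither change is given as support. Kcnk1, listed with the astrocytic channels, fell from 22.1, 21.7 and 21.4 to 16.6, 17.2 and 19.9 FPKM, without overlap, at -0.32 ± 0.083 (SE; adjusted p = 0.00908, edgeR). The astrocyte marker sum given above was higher in PEL_3d-GH. Kcnj10, at 101, 99.5 and 96.7 FPKM in SHAM-GH and 103, 110.4 and 111 in PEL_3d-GH, and Kcnj16, at 18.4, 16.4 and 19.8 against 18.8, 19.6 and 17.6, were not called, all values of Kcnj10 being higher and those of Kcnj16 overlapping. In PEL_3d-GH, Kcnj2 was at 3.1, 3.103 and 2.71 FPKM, Kcnj13 at 3.03, 2.64 and 1.63, Kcnj8 at 1.899, 1.89 and 1.87, and Kcne4 at 0.957, 1.004 and 0.864, and none of these 4 was called.

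At Day 10 under GH 38 of 69 members differed between PEL_10d-GH and SHAM-GH, 7 higher and 31 lower, against 30.9% of all 14686 genes (17.7% higher, 13.3% lower). Kcnj15 and Kcnk5, both among the higher ones, passed the count threshold only through lesioned hypothalamus, so the number called higher is no support. Between PEL_10d-GH and SHAM-GH, the libraries did not overlap in 8 members that were higher and 41 that were lower in PEL_10d-GH, where 45.9% of all genes did not overlap (23.8% higher, 22.1% lower). The median log2 fold change was -0.29 over the members, -0.32 over the neuronal channels and -0.009 over all genes. Of the neuronal channels 23 were called lower and 1, Kcns1, higher. The neuron marker sum was 2532, 2406 and 2550.4 FPKM in SHAM-GH and 2172, 2035 and 1974 in PEL_10d-GH, with 11 of 12 genes called lower and 0 higher. The microglia and macrophage sum was 209, 244 and 203 against 1109, 1536 and 1549, all 15 genes called higher, and the sum over 10 oligodendrocyte marker genes, led by Mbp, 2522, 2322 and 2579.6 against 4249, 4625 and 4139, all 10 called higher. The astrocyte sum was 1238, 1202 and 1237 against 1700.5, 2128 and 1748 (5 of 10 called higher) and the endothelial and mural sum 209, 200.02 and 174 against 252, 326 and 289 (7 of 10 called higher). None of the 5 sums overlapped. The sum over 5 blood marker genes, 21.8, 18.04 and 17.1 FPKM in SHAM-GH and 213, 66.2 and 44.9 in PEL_10d-GH, did not overlap either. The part of these markers in the channel values was not tested. The number called was 25 without PEL_10d-GH-2, 22 without SHAM-GH-1 and 21 without SHAM-GH-2. Kcnj9 had 22.2, 17.9 and 18.9 FPKM in SHAM-GH and 14.3, 12.9 and 12.96 in PEL_10d-GH, all lower, a log2 fold change of -0.57 ± 0.081 (SE; adjusted p = 0.000712, edgeR). Kcna2 went from 23.5, 22.9 and 22.1 to 18.9, 18.4 and 17.7 FPKM, a change of -0.34 ± 0.05 (SE; adjusted p = 0.000828, edgeR), and Kcnj3 from 19.9, 19.4 and 17.6 to 15.2, 14.5 and 13.6, a change of -0.41 ± 0.065 (SE; adjusted p = 0.00122, edgeR), both without overlap. Kcna5 fell from 9.199, 8.03 and 7.54 to 5.42, 4.99 and 5.64 FPKM, at -0.65 ± 0.10 (SE; adjusted p = 0.00117, edgeR). Further members called lower were Kcnh2 at -0.42 ± 0.064 (SE; adjusted p = 0.000924, edgeR), Kcna4 at -0.55 ± 0.09 (SE; adjusted p = 0.00157, edgeR), Kcnh7 at -0.49 ± 0.088 (SE; adjusted p = 0.00258, edgeR) and Kcnv1 at -0.68 ± 0.13 (SE; adjusted p = 0.00335, edgeR). Of the higher members, Kcnk6 had 1.001, 0.842 and 1.305 against 2.61, 3.17 and 2.98 FPKM, Kcne1l 7.21, 7.91 and 7.87 against 17.5, 20.8 and 12.97, and Kcnk13 3.35, 3.15 and 3.32 against 4.996, 4.82 and 4.44. None of these overlapped, and the changes were 1.45 ± 0.18 (SE; adjusted p = 0.000256, edgeR), 1.13 ± 0.16 (SE; adjusted p = 0.00063, edgeR) and 0.52 ± 0.10 (SE; adjusted p = 0.0046, edgeR). All 11 genes kept their call when any library was left out. Kcns1, a silent subunit, was called at 0.77 ± 0.26 (SE; adjusted p = 0.0457, edgeR), but without PEL_10d-GH-2 (0.50), SHAM-GH-1 (0.71), SHAM-GH-2 (0.83) or SHAM-GH-3 (0.76) it was not. Kcna3, listed for microglia and macrophages though neurons express it as well, was called lower, while the microglia and macrophage sum was higher. It had 7.76, 9.13 and 5.702 against 6.26, 4.62 and 4.75 FPKM, where the groups overlapped. Kcnj2 was called higher, with 3.32, 2.83 and 3.06 against 3.4, 4.33 and 4.19 FPKM, without overlap. Of 11 alternatives, 4 lost the call of Kcna3 (log2 fold changes from -0.72 to -0.39) and 8 that of Kcnj2 (0.28 to 0.45).

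Between PEL_10d-GH and PEL_3d-GH 11 of 69 members were called, 10 higher and 1 lower at Day 10, against 15.6% of all 14838 genes (4.81% higher, 10.8% lower). Between PEL_10d-GH and PEL_3d-GH, the libraries did not overlap in 28 members that were higher and 6 that were lower in PEL_10d-GH, where 37.8% of all genes did not overlap (18.3% higher, 19.5% lower). Median log2 fold changes were 0.26 over the members and 0.003 over all genes. Of 39 neuronal channels 8 were called higher and 0 lower, with 21 higher and 0 lower at an unadjusted p under 0.05 and 16 higher and 0 lower by DESeq2. Called marker genes at Day 10 were 3 of 12 neuronal ones, higher, 13 of 15 microglial ones, lower, and 10 of 10 oligodendrocyte ones, higher; their part was not tested. The number called was 0 without PEL_3d-GH-1, 4 without PEL_3d-GH-2, 29 without PEL_3d-GH-3, 6 without PEL_10d-GH-1 and 4 without PEL_10d-GH-2. Kcna1 had 3.66, 3.85 and 3.54 FPKM in PEL_3d-GH and 5.09, 5.82 and 5.76 in PEL_10d-GH, all higher, a log2 fold change of 0.58 ± 0.10 (SE; adjusted p = 0.00771, edgeR). Without PEL_3d-GH-1 it was 0.57 and not called. Kcna2 had 13.01, 15.2 and 13.6 against 18.9, 18.4 and 17.7 FPKM, also without overlap, at 0.37 ± 0.073 (SE; adjusted p = 0.0118, edgeR), and was not called without PEL_3d-GH-1 (0.32) or PEL_10d-GH-2 (0.35). Without PEL_3d-GH-1 the calls of Kcnb2, at 0.55 ± 0.10 (SE; adjusted p = 0.00889, edgeR), and Kcnh7, at 0.51 ± 0.095 (SE; adjusted p = 0.00943, edgeR), were lost too (0.50 and 0.50). Kcnk6 was the member called lower, at -0.82 ± 0.17 (SE; adjusted p = 0.0132, edgeR), and was not called without PEL_3d-GH-1 (-0.70), PEL_3d-GH-2 (-0.76) or PEL_10d-GH-1 (-0.75).

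GH itself was compared at each stage. SHAM-GH against SHAM called 2 of 68 members, both higher, against 1.09% of all 14539 genes (0.798% higher, 0.296% lower). Between SHAM-GH and SHAM, the libraries did not overlap in 23 members that were higher and 8 that were lower in SHAM-GH, where 33.0% of all genes did not overlap (17.2% higher, 15.8% lower). The members' median was 0.12 on the log2 scale and that of all genes -0.003. Of the neuronal channels 0 were called by edgeR, 14 were higher and 0 lower at an unadjusted p under 0.05, and DESeq2 called 2 higher. Shares of all genes are not given for the last 2 criteria, so the 14 and the 2 are no result about the channels. The 2 members were the silent subunit Kcng4, with 0.505 and 0.303 FPKM in SHAM-2 and SHAM-3 and 1.12, 0.888 and 1.17 in SHAM-GH, and the Kv11 channel Kcnh2, with 14.998 and 15.4 against 18.4, 18.8 and 17.9. Neither overlapped, and the log2 fold changes were 1.41 ± 0.29 (SE; adjusted p = 0.0435, edgeR) and 0.31 ± 0.064 (SE; adjusted p = 0.046, edgeR). Kcng4 was not called without SHAM-2 (1.83), SHAM-3 (1.08), SHAM-GH-1 (1.37) or SHAM-GH-3 (1.33). Kcnh2 was not called without SHAM-2 (0.28), SHAM-3 (0.34), SHAM-GH-1 (0.30), SHAM-GH-2 (0.29) or SHAM-GH-3 (0.33). The number called was 0 without SHAM-2, SHAM-3 or SHAM-GH-1 and 1 without SHAM-GH-3. If SHAM-1 was kept in, 0 were called and the log2 fold changes were -0.11 for Kcng4 and 0.38 for Kcnh2.

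After the lesion, PEL_3d-GH against PEL_3d called 0 of 69 members (edgeR) against 0.0270% of all 14798 genes, with 3 higher and 5 lower at an unadjusted p under 0.05 and 1 called by DESeq2. Leaving out PEL_3d-GH-3 gave 1 called member. Between PEL_3d-GH and PEL_3d, the libraries did not overlap in 3 members that were higher and 7 that were lower in PEL_3d-GH, where 12% of all genes did not overlap (5.96% higher, 6.06% lower). PEL_10d-GH against PEL_10d called 0 of 69 (edgeR), where 0 of 14763 genes were called, with 2 higher and 4 lower at an unadjusted p under 0.05 and 0 by DESeq2. Between PEL_10d-GH and PEL_10d, the libraries did not overlap in 3 members that were higher and 5 that were lower in PEL_10d-GH, where 11.4% of all genes did not overlap (5.96% higher, 5.48% lower). Whether the lesion effect differed with GH was tested as an interaction, a comparison added after the data were seen. At Day 3 it called 0 of 70 members (edgeR) against 0.0462% of all 15164 genes, with 3 higher and 17 lower at an unadjusted p under 0.05 and 2 called by DESeq2. Leaving out PEL_3d-GH-3 gave 8 called members. At Day 10 it called 0 of 70 (edgeR), where 0 of 15116 genes were called, with 1 higher and 17 lower at an unadjusted p under 0.05 and 1 by DESeq2. Leaving out PEL_10d-1 gave 2. The counts at an unadjusted p and by DESeq2 come without the share of all genes, at Day 3 as at Day 10, so they are no result about the members. The median interaction at Day 3 was -0.20 over the members, -0.30 over the neuronal channels and -0.006 over all genes, and at Day 10 it was -0.12, -0.21 and 0.01. With each library left out in turn the neuronal median ran from -0.391 to -0.228 at Day 3 and from -0.274 to -0.174 at Day 10, and with SHAM-1 kept in it was 0.009 and 0.053. No single member was thus shown to respond differently with GH by edgeR, and SHAM and SHAM-GH also differ in the number of libraries tested.

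In hippocampus the comparison of HIP-PEL_10d with HIP-SHAM, 3 against 2 libraries, asks for changes at a distance from the lesion. It called 9 of 67 tested members, 6 higher and 3 lower, against 6.15% of all 14191 genes (2.09% higher, 4.07% lower). Between HIP-PEL_10d and HIP-SHAM, the libraries did not overlap in 19 members that were higher and 12 that were lower in HIP-PEL_10d, where 43.3% of all genes did not overlap (21.4% higher, 21.9% lower). On the log2 scale the median change was 0.096 over the members, 0.10 over the neuronal channels and 0.008 over all genes. The largest changes among the called members were those of the choroid plexus channels. Kcnj13 had 34.3 and 42.3 FPKM in HIP-SHAM-2 and HIP-SHAM-3 and 1.24, 0.35 and 5.597 in HIP-PEL_10d, and Kcne2 had 23.8 and 29.05 against 0.884, 0.329 and 3.04. Every HIP-PEL_10d library was lower in both genes, with log2 fold changes of -4.06 ± 0.58 (SE; adjusted p = 0.00825, edgeR) and -4.28 ± 0.49 (SE; adjusted p = 0.00297, edgeR). The choroid plexus marker sum was 5219 and 6521 FPKM in HIP-SHAM and 257, 109 and 941 in HIP-PEL_10d, most of it Ttr (4157.22 and 5223.79 in HIP-SHAM), and 9 of its 10 genes were called lower. The part that the amount of choroid plexus in the dissected tissue had in these values was not tested. The calls were lost when HIP-SHAM-2 or HIP-SHAM-3 was left out, at -4.19 and -3.89 for Kcnj13 and -4.41 and -4.13 for Kcne2, and with HIP-SHAM-1 kept in they were -3.47 and -3.67, not called. Without HIP-PEL_10d-3 they were -5.67 and -5.54, still called. Kcnq1 had 0.128 and 0.118 FPKM in HIP-SHAM and 0.104, 0.276 and 0.23 in HIP-PEL_10d.

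**Figure D3:**
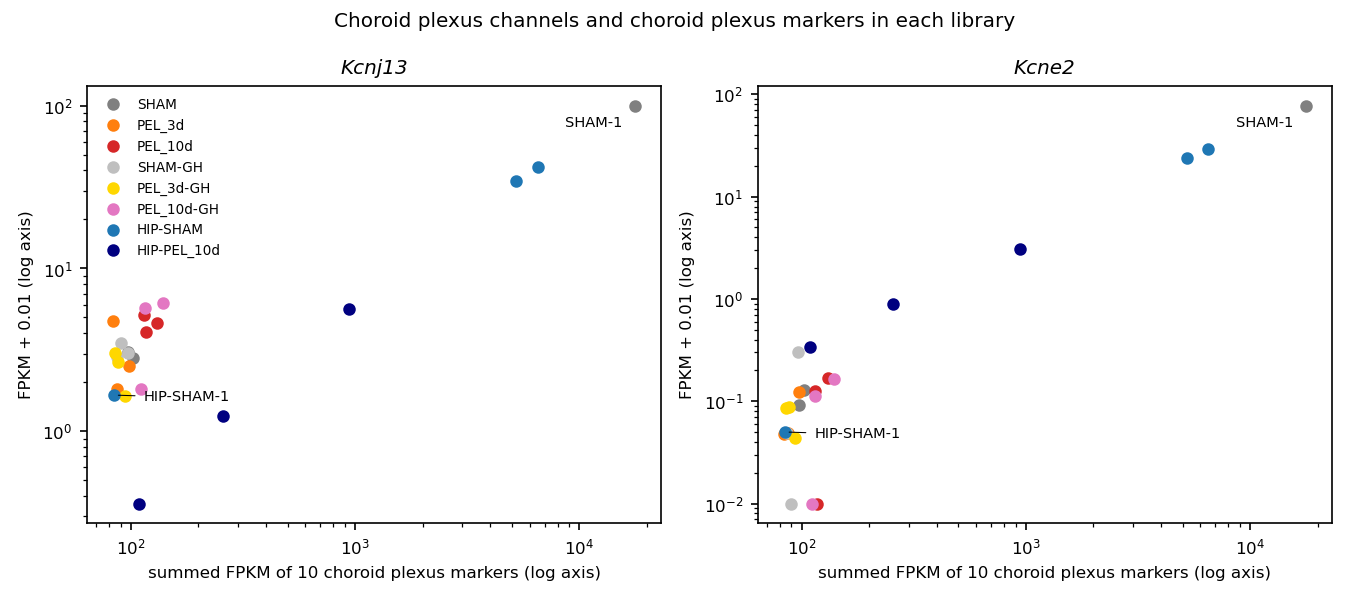
FPKM plus 0.01 of Kcnj13 and Kcne2 (y axis, log scale) against the summed FPKM of 10 choroid plexus marker genes (x axis, log scale), with 1 point per library. Kcne2 was 77.1 FPKM in SHAM-1, 23.8 and 29.05 in HIP-SHAM-2 and HIP-SHAM-3, and at most 0.293 in the other hypothalamic libraries.

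Of the neuronal channels in hippocampus 6 were called higher and 1 lower. Kcnt1 had 2.18 and 2.12 FPKM in HIP-SHAM-2 and HIP-SHAM-3 and 3.98, 4.06 and 3.71 in HIP-PEL_10d, and the inward rectifier Kcnj4 had 13.5 and 14.6 against 22.4, 25.6 and 28.2. All HIP-PEL_10d libraries were higher, with log2 fold changes of 0.80 ± 0.10 (SE; adjusted p = 0.00517, edgeR) and 0.83 ± 0.11 (SE; adjusted p = 0.00609, edgeR). The silent subunit Kcng1 rose from 6.23 and 6.12 to 11.5, 16.2 and 9.31 FPKM, at 1.05 ± 0.20 (SE; adjusted p = 0.0252, edgeR), and the acid-sensitive background channel Kcnk3 from 1.32 and 0.982 to 1.99, 2.86 and 2.35, at 1.05 ± 0.22 (SE; adjusted p = 0.0332, edgeR). Neither overlapped. In the same groups Kcnh3 had 10.6 and 9.92 against 13.1, 16.2 and 17.4 FPKM, Kcnj9 14.1 and 15.7 against 17.9, 22.4 and 21.3, and Kcnq5 24.3 and 26.02 against 21.98, 20.4 and 18.8. HIP-PEL_10d was higher in Kcnh3 and Kcnj9 and lower in Kcnq5, without overlap, and the changes were 0.59 ± 0.12 (SE; adjusted p = 0.0349, edgeR), 0.44 ± 0.11 (SE; adjusted p = 0.0497, edgeR) and -0.33 ± 0.07 (SE; adjusted p = 0.0345, edgeR). Without HIP-SHAM-2 or HIP-SHAM-3 these 7 were not called, at 0.86 and 0.74 for Kcnt1, 0.78 and 0.89 for Kcnj4, 0.99 and 1.12 for Kcng1, and 1.27 and 0.84 for Kcnk3. The pairs were 0.63 and 0.54 for Kcnh3, 0.36 and 0.52 for Kcnj9, and -0.38 and -0.28 for Kcnq5. Without HIP-PEL_10d-2, Kcnk3 (0.90), Kcnh3 (0.56), Kcnq5 (-0.33) and Kcnj9 (0.37) were not called, nor was Kcnj9 without HIP-PEL_10d-3 (0.40). The number called was 0 without HIP-SHAM-2 or HIP-SHAM-3, 15 without HIP-PEL_10d-1 and 5 without HIP-PEL_10d-2. With HIP-SHAM-1 kept in, 0 were called, and the log2 fold changes were -0.30 for Kcnt1, 1.30 for Kcnj4, 1.44 for Kcng1, -0.42 for Kcnk3, 1.13 for Kcnh3, 0.38 for Kcnj9 and 0.13 for Kcnq5.

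Markers of neighbouring tissue also differed between these groups. Over 10 thalamic marker genes the sums were 31.5 and 22.1 FPKM in HIP-SHAM-2 and HIP-SHAM-3 and 98, 52.9 and 35.8 in HIP-PEL_10d, without overlap, and 1 of 8 tested genes was called, Calb2, higher, with 6.02 and 5.897 against 46.99, 40.5 and 22.2 FPKM. Gbx2 was at 0 in all HIP-PEL_10d libraries. Over 10 striatal marker genes, led by Ppp1r1b, the sums were 106 and 103 against 87.3, 68.9 and 88.5 FPKM, all lower in HIP-PEL_10d, with Ppp1r1b called lower and Rgs9 higher. Kcnt1 and Kcnk3 were higher in hypothalamus than in hippocampus, as given below. The part that neighbouring tissue in the samples had in the channel values was not tested.

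None of the 10 listed astrocytic, microglial or vascular channels that passed the low-count filter was called in hippocampus. In HIP-SHAM-2 and HIP-SHAM-3 and then the HIP-PEL_10d libraries, Kcnj10 had 38.8 and 41.5 against 41.2, 33.6 and 34.01 FPKM, Kcnj16 5.19 and 6.83 against 7.13, 7.76 and 6.34, and Kcnk1 37.9 and 35.7 against 30.2, 27.2 and 35.8. Kcnk6 had 0.831 and 0.655 against 0.922, 0.817 and 1.26, and Kcnk13 2.67 and 3.08 against 3.87, 2.77 and 1.95. Of the others, Kcna3 had 1.44 and 1.81 against 1.58, 2.02 and 1.602 FPKM, Kcnj2 2.64 and 1.67 against 1.76, 1.4 and 1.73, Kcnj8 1.15 and 1.26 against 1.33, 1.17 and 1.17, Kcne4 0.267 and 0.48 against 0.316, 0.382 and 0.502 and Kcna5 0.228 and 0.166 against 0.351, 0.428 and 0.288. In Kcna5 every HIP-PEL_10d library was higher, and in the other 9 genes the groups overlapped. The microglia and macrophage marker sum was 227 and 229.8 FPKM in HIP-SHAM and 336, 262 and 287 in HIP-PEL_10d. Neuronal channels summed to 594 and 589 against 622, 631 and 627 FPKM, where the HIP-PEL_10d libraries were all higher. The neuron marker sum, led by Snap25, was 3302 and 3214 against 3140.3, 3197 and 3139.9 FPKM, all lower in HIP-PEL_10d, with 1 of 12 genes called higher and 2 lower. The astrocyte marker sum, led by Aldoc, was 839 and 954 against 1095, 1024 and 1054 FPKM (1 of 10 genes called higher), and the sum over 5 blood marker genes, led by Hbb-bs, 37.1 and 21.6 against 49.4, 144 and 114 (2 called higher), both higher in HIP-PEL_10d without overlap. The part of these markers in the channel values was not tested.

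The tissues were compared between PEL_10d and HIP-PEL_10d, 3 libraries each, since neither group holds a library set apart by its tissue markers. This comparison called 55 of 67 members, 21 higher and 34 lower in hypothalamus, against 60.6% of all 14561 genes (30.9% higher, 29.7% lower). Kcnk5, among the higher ones, passed the count threshold only through lesioned hypothalamus, so the number called higher is no support. Between PEL_10d and HIP-PEL_10d, the libraries did not overlap in 21 members that were higher and 35 that were lower in PEL_10d, where 68.3% of all genes did not overlap (33.7% higher, 34.5% lower). The median log2 fold change was -0.32 over the members, -1.01 over the neuronal channels and 0.019 over all genes. Of the neuronal channels 7 were called higher and 29 lower in hypothalamus, and all 9 silent Kv subunits were called lower. Kcnh3 had 0.805, 0.568 and 0.334 FPKM in PEL_10d and 13.1, 16.2 and 17.4 in HIP-PEL_10d, a log2 fold change of -5.01 ± 0.23 (SE; adjusted p = 2.26e-07, edgeR). Kcnj4 had 2.65, 2.73 and 2.44 against 22.4, 25.6 and 28.2 FPKM, at -3.53 ± 0.12 (SE; adjusted p = 6.23e-08, edgeR), and Kcnv1 1.27, 1.63 and 1.51 against 10.2, 10.8 and 9.64, at -3.04 ± 0.11 (SE; adjusted p = 8.86e-08, edgeR). Kcnq5, at -2.37 ± 0.084 (SE; adjusted p = 6.97e-08, edgeR), and Kcnj3, at -1.93 ± 0.081 (SE; adjusted p = 1.68e-07, edgeR), were lower in hypothalamus as well. Higher in hypothalamus were the G protein-gated Kcnj5, with 5.995, 5.31 and 3.02 FPKM in PEL_10d and 0.287, 0.095 and 0.056 in HIP-PEL_10d, at 4.80 ± 0.40 (SE; adjusted p = 8.65e-06, edgeR) (5.43 without HIP-PEL_10d-1), and Kcna5, with 6.77, 5.16 and 3.63 against 0.351, 0.428 and 0.288, at 3.60 ± 0.28 (SE; adjusted p = 5.86e-06, edgeR). None of these 7 overlapped between tissues or lost its call when a library was left out.

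Channels listed as glial by general knowledge also separated the tissues, not all in the same direction. Kcnj10 had 91.04, 99.2 and 92.6 FPKM in PEL_10d and 41.2, 33.6 and 34.01 in HIP-PEL_10d, and Kcnj16 had 17.3, 19.99 and 18.6 against 7.13, 7.76 and 6.34, all higher in hypothalamus, with log2 fold changes of 1.13 ± 0.085 (SE; adjusted p = 4.59e-06, edgeR) and 1.15 ± 0.092 (SE; adjusted p = 6.76e-06, edgeR). Kcnk1 went the other way, at -1.05 ± 0.11 (SE; adjusted p = 4.59e-05, edgeR), from 16.3, 19.6 and 17.6 FPKM in PEL_10d and 30.2, 27.2 and 35.8 in HIP-PEL_10d. Kcnt1, at 1.17 ± 0.086 (SE; adjusted p = 4.06e-06, edgeR), and Kcnk3, at 1.32 ± 0.13 (SE; adjusted p = 3.27e-05, edgeR), were higher in hypothalamus. Kcnk6 was called at 0.53 ± 0.20 (SE; adjusted p = 0.0437, edgeR), but not without PEL_10d-1 (0.59), PEL_10d-2 (0.45), PEL_10d-3 (0.53), HIP-PEL_10d-1 (0.45) or HIP-PEL_10d-2 (0.39).

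**Figure D4:**
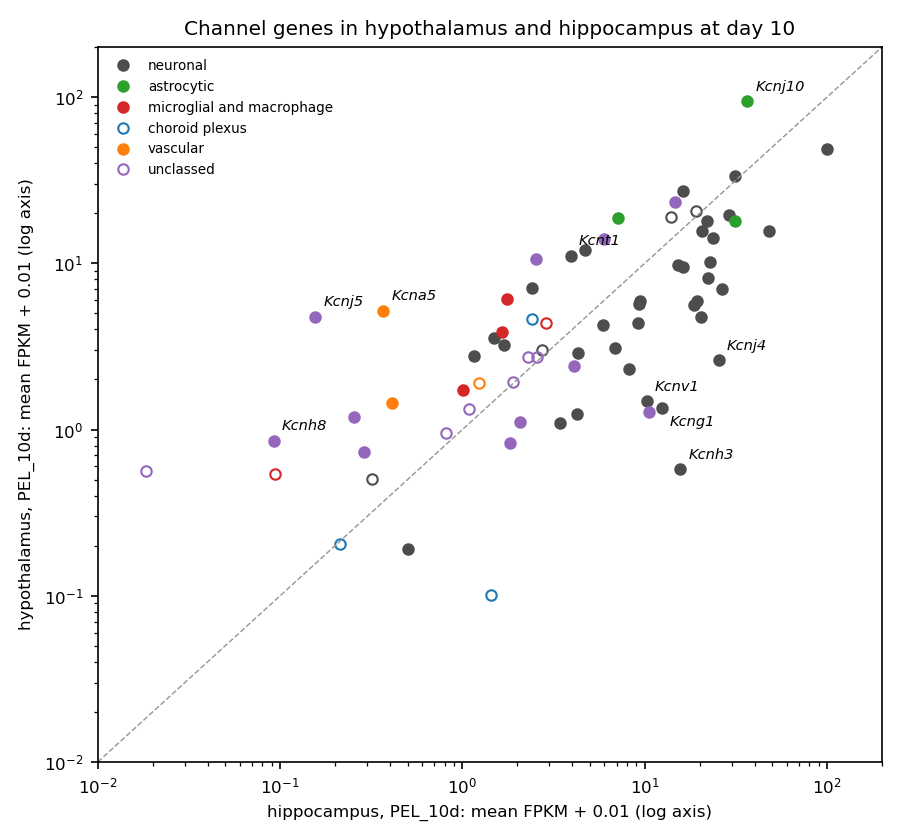
Mean FPKM plus 0.01 of each member in HIP-PEL_10d and PEL_10d (log axes), with filled points for members called between the tissues. Kcnh3 lies toward hippocampus, with 13.1, 16.2 and 17.4 FPKM there against 0.805, 0.568 and 0.334 in hypothalamus, and Kcnj5 lies toward hypothalamus.

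Whether the lesion effect at Day 10 differed between the tissues was tested as an interaction over SHAM, PEL_10d, HIP-SHAM and HIP-PEL_10d. It called 7 of 71 members, 1 higher and 6 lower, against 10.7% of all 15053 genes (6.52% higher, 4.22% lower), with a median of -0.15 over the members and -0.03 over all genes. Kcnj13 had an interaction of 4.64 ± 0.82 (SE; adjusted p = 0.00556, edgeR), its FPKM being 3.08 and 2.83 in SHAM and 5.18, 4.06 and 4.603 in PEL_10d against 34.3 and 42.3 in HIP-SHAM and 1.24, 0.35 and 5.597 in HIP-PEL_10d. Kcnt1 had 10.05 and 11.5 FPKM in SHAM and 12.2, 11.03 and 10.02 in PEL_10d, which overlapped, and 2.18 and 2.12 in HIP-SHAM and 3.98, 4.06 and 3.71 in HIP-PEL_10d, which did not, an interaction of -0.81 ± 0.14 (SE; adjusted p = 0.00461, edgeR). These calls held when any library was left out, and that of Kcnj13 was 6.27 without HIP-PEL_10d-3. The interaction of Kcnk3 was -1.12 ± 0.22 (SE; adjusted p = 0.00996, edgeR), and without HIP-SHAM-3 it was -0.90 and not called. Kcnf1 was called at -0.90 ± 0.21 (SE; adjusted p = 0.0209, edgeR) and lost the call without HIP-SHAM-2 (-0.90), HIP-SHAM-3 (-0.86), SHAM-2 (-0.91) or SHAM-3 (-0.89). Kcnk9, at -0.72 ± 0.19 (SE; adjusted p = 0.0349, edgeR), was lost without HIP-PEL_10d-2 (-0.60), HIP-PEL_10d-3 (-0.72), HIP-SHAM-2 (-0.55), PEL_10d-1 (-0.62), PEL_10d-3 (-0.73), SHAM-2 (-0.81) or SHAM-3 (-0.64). Kcnj9, at -0.56 ± 0.16 (SE; adjusted p = 0.0436, edgeR), was lost without HIP-PEL_10d-2 (-0.47), HIP-PEL_10d-3 (-0.50), HIP-SHAM-2 (-0.47), HIP-SHAM-3 (-0.62), PEL_10d-1 (-0.48), PEL_10d-2 (-0.59), SHAM-2 (-0.64) or SHAM-3 (-0.47). For Kcnd3, called at -0.64 ± 0.15 (SE; adjusted p = 0.0201, edgeR), the values were -0.57 without HIP-SHAM-2, -0.68 without HIP-SHAM-3, -0.58 without SHAM-2 and -0.70 without SHAM-3, none called. The number called was 3 without HIP-SHAM-2, HIP-SHAM-3 or SHAM-2, 4 without SHAM-3 and 11 without HIP-PEL_10d-1. With SHAM-1 and HIP-SHAM-1 kept in, 0 were called, and the interaction was 0.42 for Kcnj13, 0.64 for Kcnk9, -0.28 for Kcnj9, 0.61 for Kcnt1, 0.84 for Kcnk3, -0.88 for Kcnf1 and -0.49 for Kcnd3.

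A list of 24 channel partners that the symbol rule leaves out, such as the Kcnip, Kcnab and Hcn genes and Kcnma1, was counted in the same way. After 3 days 2 of 21 tested were called higher and 13 lower (median log2 fold change -0.35), where 22.2% of all genes were higher and 18.2% lower. Under GH 1 of 21 was higher and 16 lower, against 26.9% and 25.2% of all genes. In hippocampus 1 of 22 was called, against 6.15%, and between tissues 5 of 21 were higher and 12 lower in hypothalamus, against 30.9% and 29.7%. Kcnip1, which binds Kv4 channels and was singled out after its values were seen, had 44.1 and 41.7 FPKM in SHAM-2 and SHAM-3 and 28.9, 28.4 and 29.1 in PEL_3d, all lower, a log2 fold change of -0.60 ± 0.072 (SE; adjusted p = 0.00011, edgeR). With SHAM-1 kept in it was -0.21 and not called.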

How the data were processed

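Total RNA of hypothalamus and hippocampus was sequenced after messenger RNA library preparation with a SMARTER kit, in 24 libraries of 8 groups. The authors aligned reads with Hisat2 and counted them per gene with featureCounts, and the submitters' notes name GRCm38/mm10. The deposited table gives expected counts (expected_counts), which the authors estimated per gene from the aligned reads without normalization and of which 8.22% were not whole, and the authors' fpkm values (fragments scaled by gene length and library size). Of 22274 gene IDs 22219 matched a current symbol, and 5 members carried another symbol in the table.

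Counts were rounded and tested with the quasi-likelihood test of edgeR 4.0.16 in R 4.3.3 (TMM scaling, filterByExpr with a minimum count of 10, Benjamini-Hochberg adjustment over all genes tested, threshold 0.05), fitting only the groups compared. Called genes have an adjusted p under 0.05, and all tests are two-sided. Counts at an unadjusted p under 0.05 and by DESeq2 come without the share of all genes at those criteria, so they are no result about the members. The SE was taken from the fold change and its F statistic. FPKM were used for description only. Numbers of members whose libraries did not overlap were counted on normalised counts, and overlap of a named gene was judged on FPKM. SHAM-1 and HIP-SHAM-1 were left out because their tissue markers go against their labels. The tests were also tried on simulated data made from the same libraries, and no result given here uses the outcome. Count ratios of Kcnj15 have 95% Clopper-Pearson intervals (scipy 1.17.1). Python 3.11.15, pandas 2.3.3, numpy 2.4.6 and matplotlib 3.10.9 made the tables and figures.

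The alternatives were no low-count filter, DESeq2 size factors in edgeR, DESeq2 1.42.0, the replicate number as a block, 1 fit over all groups, all libraries as labelled, and each library left out in turn. The interactions of lesion and GH were added after the data were seen.

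Members, marker lists and channel lists were chosen with earlier results of these data known. Named were up to 8 called members per direction and comparison by adjusted p, the glial, choroid plexus and vascular channels, and 13 neuronal channels (Kcna1, Kcna2, Kcnc1, Kcnd2, Kcnh3, Kcnj3, Kcnj6, Kcnj9, Kcnn2, Kcnq3, Kcnq5, Kcnt1 and Kcnv1). Not all of these are given in each comparison. Any other gene was named after its values were seen. Results of 3 members are counted but not reported by name here. Lists were described by counts and medians, without a set test.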

Additional observations from a re-analysis of the deposited data

Results flagged for a closer look

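A test of the difference between the lesion effects at Day 10 in hypothalamus and hippocampus (edgeR, log2 scale, hypothalamus minus hippocampus) called 7 of 71 members, a share no larger than the 10.7% of all 15053 genes, so the count is no result about the members. The differences were 4.64 for Kcnj13, -0.72 for Kcnk9, -0.56 for Kcnj9, -0.64 for Kcnd3, -1.12 for Kcnk3, -0.90 for Kcnf1 and -0.81 for Kcnt1. Only Kcnj13 and Kcnt1 kept the call when any library was left out, and the number called fell to 3 or 4 without SHAM-2, SHAM-3, HIP-SHAM-2 or HIP-SHAM-3. With SHAM-1 and HIP-SHAM-1 kept in, none of the 7 was called. The cause was not tested.

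A pair of libraries that the tests leave out held channel transcripts at over 10 times the level of every other library of the group they are labelled with. In SHAM-1, Kcnj13 was 99.75 FPKM, Kcne2 77.09 and Kcnh3 7.38. In HIP-SHAM-1, Kcna5 was 8.07 FPKM and Kcnj5 5.48. The hypothalamic and hippocampal marker sums of HIP-SHAM-1 were in the range of the hypothalamic libraries. SHAM-1 lacked hypothalamic markers, but its hippocampal sum (298.36 FPKM) was below and its choroid plexus sum (17750.95 FPKM) above those of the hippocampal libraries. Groups of 3 libraries were not tested for outlying samples. In PEL_3d-GH the chi-square per degree of freedom between libraries was 4.18 for replicates 1 and 2. It was 17.6 between replicates 1 and 3 and 19.7 between 2 and 3. In PEL_10d-GH it was 10.2 for replicates 1 and 2, 19.7 for 1 and 3, and 11.6 for 2 and 3. The counts without PEL_3d-GH-3 are given above.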

How the results depend on the processing

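Each result was computed again under the alternatives set beforehand and, for the interactions of lesion and GH, under alternatives chosen after seeing the data. For results called in the reported fits, including some genes not named here, 2068 values under an alternative were compared with the reported ones. Of these 1730 kept direction and call, 327 kept direction and lost the call, and 11 changed direction. Named genes that were not called are outside this tally, so it shows no gained call. No change of scaling moved the median of all genes by over 0.1.

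Keeping SHAM-1 and HIP-SHAM-1 in gave all 11 changes of direction. After 3 days Kcng4, called higher without SHAM-1, was -0.44, and Kcnk3, Kcnk9 and Kcnj5, called lower without it, were 0.18, 0.19 and 0.13. Kcng4 was -0.11 for SHAM-GH against SHAM. In hippocampus Kcnt1 was -0.30, Kcnk3 -0.42 and Kcnq5 0.13, and in the interaction of tissue and lesion Kcnt1 was 0.61, Kcnk3 0.84 and Kcnk9 0.64. The same alternative called 7 members for PEL_3d against SHAM in place of 33, and 0 for PEL_10d against SHAM, SHAM-GH against SHAM, HIP-PEL_10d against HIP-SHAM and the interaction of tissue and lesion.

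DESeq2 called 20 members for PEL_10d-GH against PEL_3d-GH (11 by edgeR), 4 for SHAM-GH against SHAM (2), 1 for PEL_3d-GH against PEL_3d (0), 13 for the interaction of tissue and lesion (7), and 2 and 1 for the interactions of GH and lesion at Day 3 and Day 10 (0 and 0). No low-count filter gave 6 for SHAM-GH against SHAM. 1 fit over all groups gave 25 for PEL_10d-GH against PEL_3d-GH, 0 for SHAM-GH against SHAM and 11 for the interaction of tissue and lesion. The hippocampus holds only the groups compared, so its fit over all groups is the reported one. In the other comparisons these alternatives stayed within 1.5 times the reported count. The cause was not tested.

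With the replicate number as a block, 5 members were called for PEL_10d-GH against PEL_3d-GH, 5 for SHAM-GH against SHAM and 15 for HIP-PEL_10d against HIP-SHAM. Correlations between libraries of the same number in different groups ran from -0.294 to 0.222. They were not set against pairs of different numbers, so they cannot decide whether libraries were paired by number.

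Leaving out each library in turn gave 18 to 36 called members for PEL_3d against SHAM, 0 to 4 for PEL_10d against SHAM, 4 to 22 for PEL_10d against PEL_3d, 43 to 51 for PEL_3d-GH against SHAM-GH, 21 to 40 for PEL_10d-GH against SHAM-GH and 0 to 29 for PEL_10d-GH against PEL_3d-GH. The range was 0 to 2 for SHAM-GH against SHAM, 0 to 1 for PEL_3d-GH against PEL_3d, 0 to 0 for PEL_10d-GH against PEL_10d, 0 to 15 for HIP-PEL_10d against HIP-SHAM, 54 to 57 for PEL_10d against HIP-PEL_10d, and 3 to 11 for the interaction of tissue and lesion. For the interactions of GH and lesion it was 0 to 8 at Day 3 and 0 to 2 at Day 10. Where this left SHAM or HIP-SHAM with 1 library, that lone sample is assumed to vary like the others. Low counts limit Kcnj15 and Kcnq1, whose Sham libraries had 1 to 8 counts.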
